A study of Mus musculus with 8 samples.

Results

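The mRNAs of 10 genes of the tumour necrosis factor (TNF) system were followed in mouse bone marrow neutrophils that were left unstimulated or given R848, an agonist of TLR7. The 10 genes were chosen by symbol from the 24421 genes of the count table: the ligands Tnf, Tnfsf13b and Tnfsf14, the receptors Tnfrsf1a, Tnfrsf1b, Ltbr and Fas, and the receptor-associated signalling proteins Traf1, Traf2 and Traf3. All 10 entered the tests, which covered the 12254 genes detected (1 count or more) in 2 or more libraries. The cells came from 8-week-old female C57BL/6 mice, either wild type (WT) or Padi4 knockout (KO), the latter with a germline deletion of exon 1 of Padi4, the gene of the histone-citrullinating enzyme PAD4. Each of the 4 groups (WT unstimulated, WT with R848, Padi4 KO unstimulated, Padi4 KO with R848) had 2 libraries. R848 was used at 1 µg/ml for 6 h, whereas for the unstimulated cells the sample titles give 0 h and the protocol gives 6 h, so a change after R848 may include the effect of the culture time. The study's methods state a duplicate analysis of each sample, and neither they nor the labels say whether the 2 libraries of a group came from separate mice. The p-values then measure only the spread between these libraries, which may be technical.

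TNF ligands are mostly trimeric membrane proteins that can be shed, and they bind receptors without enzymatic activity of their own. The receptors pass the signal on through TNF receptor-associated factors (TRAFs) or death-domain adaptors, which lead to nuclear factor κB (NF-κB), MAP kinases or caspases. In myeloid cells, Toll-like receptor ligation is a textbook inducer of Tnf, and several inhibitors of the pathway are themselves NF-κB targets.

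The libraries held between 562446 and 1177972 counts on genes, with 562446 to 668857 in WT and 716440 to 1177972 in Padi4 KO. At these depths 3 counts in a library, the limit that a count of 0 allows, correspond to a CPM (counts scaled to a library total of 1e+06) of between 2.55 and 5.33. Padi4 itself was counted 590 and 527 times in unstimulated WT and 166 and 234 times in WT with R848. The Padi4 KO libraries held 40 and 54 Padi4 counts without R848 and 34 and 21 with it. The transcripts of neutrophil granule and surface markers were abundant in every library, with 74910 to 104800 CPM of the library total summed over 9 measured markers of mature neutrophils and 53320 to 74330 CPM over 10 markers of immature ones. Both sums were lower in every Padi4 KO library than in every WT library. S100a8 and S100a9 made up most of the mature sum. Cxcr2 and Csf3r went the other way. Over the WT and Padi4 KO groups, Cxcr2 was at 1187 and 1333 CPM without R848 and at 686.5 and 820.5 CPM with it. Csf3r was at 2142 and 2269 CPM without R848 and at 1547 and 1952 CPM with it. The other mature markers and all the immature ones were lower in Padi4 KO in both conditions. The summed level of 13 erythroid markers was 110 to 123 CPM in unstimulated WT, 19.4 to 24.6 CPM in WT with R848, 1183 to 1237 CPM in unstimulated Padi4 KO and 1300 to 1314 CPM in Padi4 KO with R848, with the globin genes Hba-a1, Hbb-bs and Hbb-bt at 0 counts throughout. The 10 monocyte markers summed to 649 to 713, 1188 to 1307, 1435 to 1495 and 1718 to 1767 CPM in the same order. Csf1r (145 to 781 CPM over the WT group and 220 to 1046 CPM over the Padi4 KO group) and Fcgr4 (117 to 275 and 99.5 to 315 CPM) carried the higher sums with R848, while Ccr2, Ly86, Irf8, F13a1, Klf4 and Ctss were lower with R848 in both genotypes. The 8 macrophage markers summed to 78.2 to 116, 2093 to 2131, 73.5 to 76.8 and 1711 to 1826 CPM in that order. Of these, Adgre1 went from 39.9 to 2011 CPM over the WT group and from 45.1 to 1723 CPM over the Padi4 KO group, while Mertk, Cd163 and Mrc1 were at 0 counts in all libraries with R848. The markers of B cells, of T and NK cells and of eosinophils, basophils and mast cells summed to at most 54.6 CPM in any library. The 8 stromal and endothelial markers summed to 201 to 229 and 523 to 663 CPM in unstimulated WT and Padi4 KO and to at most 47.6 CPM after R848. Col1a1 (105.5 and 268.3 CPM over the unstimulated WT and Padi4 KO groups) and Col1a2 (93.9 and 321.1 CPM) carried the unstimulated sums. Pecam1 was lower in unstimulated Padi4 KO (14.13 and 11.55 CPM), and each of the others was at most 3.849 CPM in these groups. The part of other cells in the values below was not tested, and fewer cells of a type cannot be told apart from less RNA per cell in these bulk samples.

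**Figure D1:**
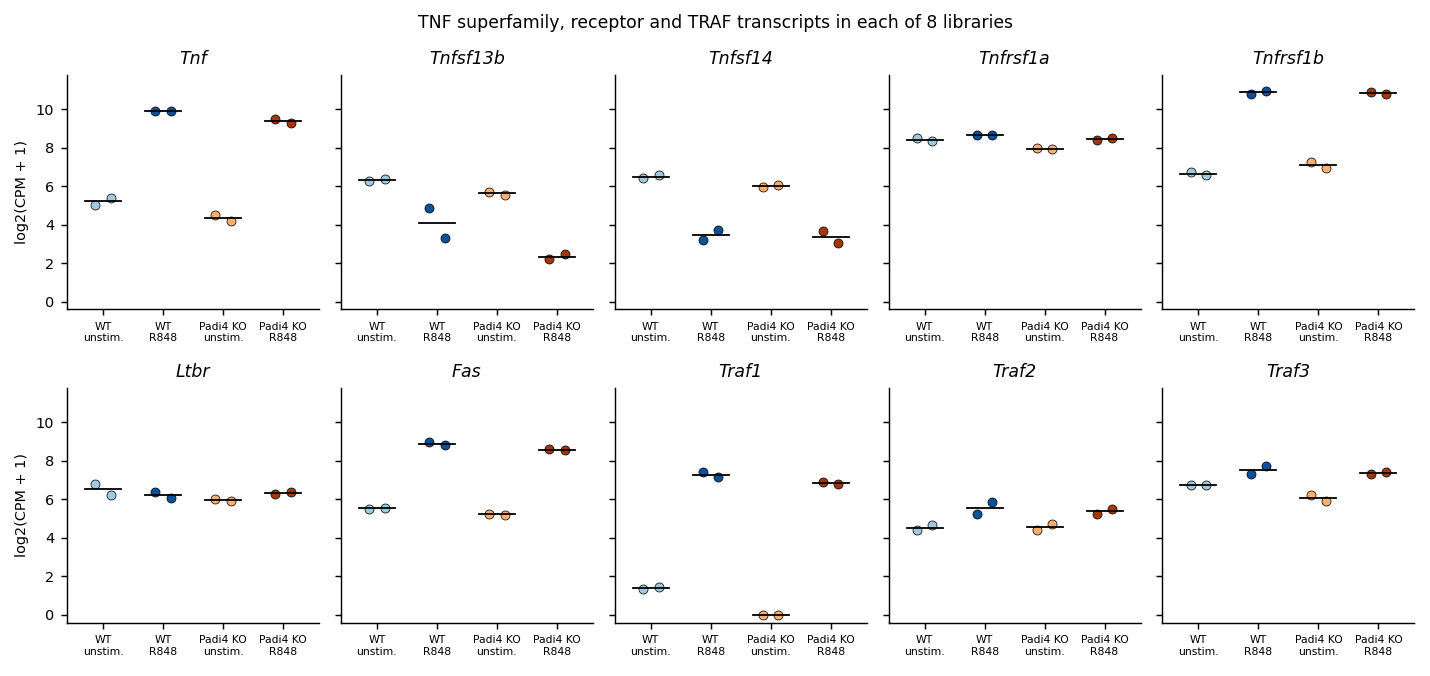
Level of each of the 10 transcripts in the 8 libraries as log2(CPM + 1), where CPM is scaled by the trimmed mean of M values (TMM). Each point is 1 library and each line the mean of 2. Tnf, Tnfrsf1b, Fas and Traf1 are higher and Tnfsf13b and Tnfsf14 lower with R848 in both genotypes, and Traf1 is at 0 in both unstimulated Padi4 KO libraries.

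R848 was followed by a large rise of Tnf, Tnfrsf1b, Fas and Traf1 and by a fall of Tnfsf13b and Tnfsf14 in both genotypes. To be called, a response had to exceed 2-fold and to have a false discovery rate (FDR) under 0.1 by edgeR's quasi-likelihood test, the p-values being adjusted over all genes tested by the Benjamini-Hochberg method. In WT, 5 of the 10 genes were called higher (Tnf, Tnfrsf1b, Fas, Traf1 and Traf2) and 2 lower (Tnfsf13b and Tnfsf14), where 7.17% of all genes tested were called higher and 10.8% lower (879 and 1328 genes, against 630 and 2106 with library size alone and 811 and 719 with DESeq2). In Padi4 KO, 5 were called higher (Tnf, Tnfrsf1b, Fas, Traf1 and Traf3) and the same 2 ligands lower, against 8.07% higher and 8.84% lower among all genes tested (989 and 1083 genes, against 624 and 2072 with library size alone). Taken over the 10 genes, the log2 fold changes had a median of 0.95 (WT) and 1.07 (Padi4 KO), beside -0.17 and -0.031 over all 12254 genes.

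Among the ligands, Tnf (ENSMUSG00000024401, chr17:35199381-35202007 of GRCm38, minus strand), the founding cytokine of the family, had 30.9 and 41.4 CPM in unstimulated WT and 950 and 949 CPM after R848. In Padi4 KO it had 21.5 and 17.4 CPM without and 729 and 621 CPM with R848. All 4 groups were apart from each other, with the WT libraries above the Padi4 KO libraries in each condition. The rise was 26.3-fold in WT (log2 fold change 4.72, standard error (SE) 0.15, adjusted p = 2.80e-201) and 35.2-fold in Padi4 KO (5.14, SE 0.15, adjusted p = 4.13e-259). Across the 8 libraries and 2919 well-counted genes, the transcript most like Tnf in log2 CPM was Tnfaip3, the deubiquitinase A20 that restrains TNF signalling (Pearson r 0.9995), followed by Pla2g7 (0.9990) and Triobp (0.9986). These correlations follow the 4 group means and are given as a description only.

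Tnfsf13b (chr8:10006467-10039072, plus strand) encodes BAFF, a survival factor for B cells, and went the other way. It had 77.3 and 81.2 CPM in unstimulated WT against 28.5 and 8.85 CPM after R848, and 50.9 and 45.7 CPM in unstimulated Padi4 KO against 3.55 and 4.595 CPM after R848. The libraries with R848 were all below those without, and the 2 WT libraries with R848 were far apart from each other (14 and 5 counts). The log2 fold change was -2.13 in WT (SE 0.32, adjusted p = 5.13e-10) and -3.51 in Padi4 KO (SE 0.37, adjusted p = 2.00e-20), which left 0.229 and 0.0879 of the unstimulated level. The WT value moved to -3.004 without the first and -1.37 without the second WT library with R848 and stayed past the threshold in both cases.

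Tnfsf14 (chr17:57189492-57194177, minus strand), whose product LIGHT is a ligand of the lymphotoxin β receptor, had 83.5 and 94.96 CPM in unstimulated WT and 8.15 and 12.4 CPM after R848. The Padi4 KO libraries had 61.1 and 66.0 CPM without and 11.6 and 7.35 CPM with R848. The unstimulated libraries lay above all libraries with R848, where 4 to 13 counts remained. The log2 fold change was -3.08 in WT (SE 0.35, adjusted p = 8.47e-17) and -2.74 in Padi4 KO (SE 0.28, adjusted p = 3.16e-21).

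The receptors split into a pair that rose and a pair that did not pass the threshold. Tnfrsf1b (chr4:145213463-145246870, minus strand), which encodes the TRAF-binding TNF receptor TNFR2, had 104 and 94.96 CPM in unstimulated WT and 1798 and 1948 CPM after R848. In Padi4 KO it had 149 and 122 CPM without and 1883 and 1749 CPM with R848. Unstimulated Padi4 KO lay above unstimulated WT, and with R848 the genotypes overlapped. The rise was 18.8-fold in WT (log2 4.23, SE 0.11, adjusted p = 2.23e-298) and 13.6-fold in Padi4 KO (3.77, SE 0.094).

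Tnfrsf1a (chr6:125349362-125362484, plus strand), the death-domain receptor TNFR1, was already well expressed without stimulation. It had 362 and 319 CPM in unstimulated WT, 402 and 407 CPM in WT with R848, 249 and 245 CPM in unstimulated Padi4 KO and 333 and 364 CPM in Padi4 KO with R848. Each genotype had its higher values with R848. The groups did not overlap within a genotype or within a condition, while unstimulated WT and Padi4 KO with R848 overlapped. The log2 fold change was 0.24 in WT (SE 0.12, adjusted p = 0.111) and 0.50 in Padi4 KO (SE 0.10, adjusted p = 6.17e-06), the latter a 1.41-fold change below the 2-fold minimum.

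Because the receptors were counted in the same libraries, their ratio does not depend on the scaling between libraries. Per kilobase of merged exons, Tnfrsf1b stood at 0.162 and 0.168 of Tnfrsf1a in unstimulated WT and at 0.339 and 0.281 in unstimulated Padi4 KO. After R848 the ratio was 2.53 and 2.70 in WT and 3.19 and 2.71 in Padi4 KO. TNFR1 transcripts were thus the more frequent per kilobase in all 4 unstimulated libraries and TNFR2 transcripts in all 4 libraries with R848. The unstimulated Padi4 KO ratios were above the WT ratios, and after R848 the lower Padi4 KO ratio lay just above the higher WT ratio. With 2 libraries against 2, a two-sided exact permutation test of the ratio cannot go below p = 0.333, so none was used.

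**Figure D2:**
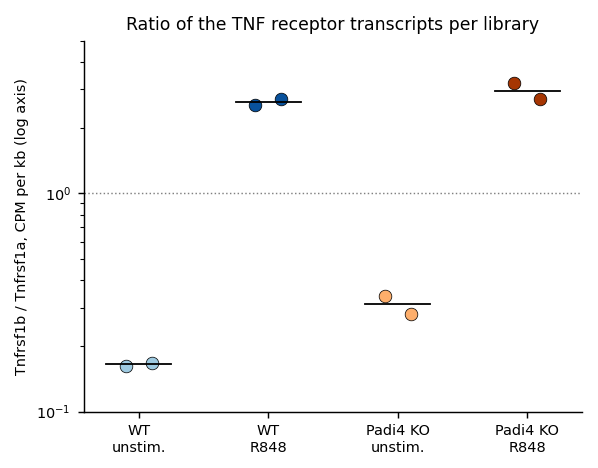
Ratio of Tnfrsf1b to Tnfrsf1a, each as CPM per kilobase of merged exons, on a log axis. Each point is 1 library, each line the mean of 2, and the dotted line marks equal levels. The unstimulated libraries lie between 0.162 and 0.339 and the libraries with R848 between 2.53 and 3.19.

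Fas (chr19:34290666-34327772, plus strand), the death receptor CD95, had 44.8 and 46.6 CPM in unstimulated WT and 501 and 448 CPM after R848. The Padi4 KO libraries had 37.3 and 35.6 CPM without and 388.2 and 376.8 CPM with R848, below WT in both conditions. The rise was 10.3-fold in WT (log2 3.37, SE 0.17, adjusted p = 1.84e-87) and 10.5-fold in Padi4 KO (3.39, SE 0.14, adjusted p = 9.06e-123). Its ligand Fasl had 0 counts in all 8 libraries.

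Ltbr (chr6:125306571-125313885, minus strand), the lymphotoxin β receptor encoded near Tnfrsf1a, showed no called response. It had 111 and 74.2 CPM in unstimulated WT against 81.5 and 65.5 CPM with R848, which overlap, and 64.5 and 60.2 CPM in unstimulated Padi4 KO against 77.3 and 83.6 CPM with R848, which do not. The log2 fold change was -0.36 in WT (SE 0.22, adjusted p = 0.250) and 0.38 in Padi4 KO (SE 0.17, adjusted p = 0.0857), a change of 1.30-fold in the latter. With library size alone as the scaling, the Padi4 KO value was -0.00073. The WT value lay between -0.61 and -0.023 when 1 library was left out.

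Of the TRAFs, Traf1 (chr2:34941750-34961772, minus strand), a TRAF without a RING domain, was close to absent without stimulation. It had 1 count in each unstimulated WT library (1.55 and 1.73 CPM) and 0 counts in both unstimulated Padi4 KO libraries, where 3 counts would be 4.19 and 2.72 CPM of the library total. With R848 the WT libraries held 84 and 80 Traf1 counts (171 and 142 CPM), and the Padi4 KO libraries 136 and 120 (121 and 110 CPM). The ratio of the scaled group sums in WT was 95.3, with an exact 95% interval for counting error alone of 26.0 to 793. In Padi4 KO the level after R848 was at least 87.2-fold higher than 3 counts over the unstimulated group. Both changes passed the test (adjusted p = 9.56e-49 and 1.48e-73), while the fitted fold changes depend on a prior count and are not given.

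Traf2 (chr2:25517982-25546940, minus strand), the RING-domain TRAF that TNFR2 binds directly, changed less. It had 20.1 and 24.2 CPM in unstimulated WT and 36.7 and 56.7 CPM with R848, and 20.4 and 25.4 CPM in unstimulated Padi4 KO and 36.4 and 45.0 CPM with R848. Within each genotype the libraries with R848 were the higher ones, and the genotypes overlapped without R848 and with it. The log2 fold change was 1.10 in WT (SE 0.34, adjusted p = 0.00714) and 0.79 in Padi4 KO (SE 0.25, adjusted p = 0.00751, 1.73-fold and so not called). The WT call was lost with library size alone (0.80), without the first unstimulated library (0.97) and without the second library with R848 (0.83), all under 2-fold.

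Traf3 (chr12:111166370-111267153, plus strand), which restrains the non-canonical NF-κB kinase NIK and also takes part in interferon induction downstream of Toll-like receptors, had 108 and 107 CPM in unstimulated WT and 157 and 216 CPM with R848. It had 73.5 and 58.8 CPM in unstimulated Padi4 KO and 159 and 173 CPM with R848. The libraries with R848 were the higher ones in each genotype, and after R848 the genotypes overlapped. The log2 fold change was 0.81 in WT (SE 0.17, adjusted p = 2.13e-05, 1.75-fold and so not called) and 1.36 in Padi4 KO (SE 0.15, adjusted p = 8.55e-19, 2.56-fold). The WT value was 1.14 and called without the first WT library with R848, and the Padi4 KO value was 0.98 and not called with library size alone. A gene on the opposite strand, 4930595D18Rik, overlaps Traf3, and the strand setting of the counting is not given in the sources used here.

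**Figure D3:**
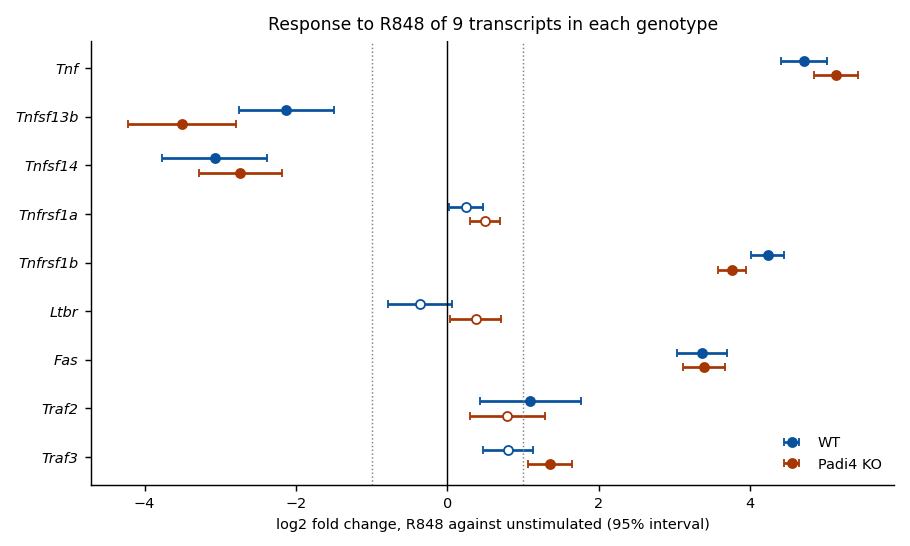
Log2 fold change after R848 in WT and Padi4 KO for 9 of the 10 transcripts, with 95% intervals; filled points passed an FDR of 0.1 and a 2-fold change, and dotted lines mark 2-fold. Traf1 is left out because its unstimulated Padi4 KO libraries had 0 counts. Tnf lies at 4.72 and 5.14, and Tnfsf13b at -2.13 and -3.51.

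The order of levels per kilobase was led by Tnfrsf1a in unstimulated cells, with 158 ± 13.9 CPM per kilobase (SD, n = 2) for WT and 115 ± 1.14 (SD, n = 2) for Padi4 KO. In unstimulated WT the next in order were Tnfsf14 and Ltbr, at 48.3 ± 4.39 and 44.0 ± 12.4, which overlapped, then Tnfrsf1b, Fas and Tnf between 22.1 and 26.0, each overlapping the next. Tnfsf13b, Traf3, Traf2 and Traf1 followed without overlap, from 16.6 down to 0.404. After R848 the top of the list was Tnf (579 ± 0.320), Tnfrsf1b (491 ± 27.8), Fas (264 ± 21.0) and Tnfrsf1a (188 ± 1.88) in WT, with no overlap between neighbours. In Padi4 KO with R848 the order of the leading pair was Tnfrsf1b (476 ± 24.9) before Tnf (412 ± 46.3), again without overlap, and then Fas (213 ± 4.50) and Tnfrsf1a (162 ± 10.1). Tnfsf13b had the lowest mean in both groups with R848, at 3.92 ± 2.92 in WT, where it overlapped with Tnfsf14 (5.56 ± 1.62), and at 0.854 ± 0.154 in Padi4 KO, where it did not.

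The wider pathway was read from a list of 86 genes in 6 roles (ligands, receptors, TRAFs, adaptors with kinases and ubiquitin ligases, inhibitors with deubiquitinases, and sheddases). Of these, 70 were tested, 60 of them not among the 10 genes. Leaving out the 10 genes, 14 of 60 were called higher and 1 lower after R848 in WT, and 15 higher and 1 lower in Padi4 KO. Over all genes tested the shares were 7.17% higher and 10.8% lower in WT and 8.07% and 8.84% in Padi4 KO. With at least 10 counts on average, 12 of 36 were called higher and 0 lower in WT, beside 10.8% and 14% of the 6912 genes with as many counts. In Padi4 KO 10 of 36 were higher and 0 lower, beside 10.9% and 8.22%.

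Among these genes with at least 10 counts, the inhibitors Tnfaip3 and Tnip1 had the largest log2 fold changes in both genotypes. Tnfaip3 rose by a log2 fold change of 4.28 (SE 0.18) in WT and 4.62 (SE 0.17) in Padi4 KO, from 21.6 and 32.8 to 540 and 515 CPM in WT and from 18.1 and 15.2 to 436 and 372 CPM in Padi4 KO. Tnip1, the A20-binding protein ABIN1, rose by 4.09 (SE 0.13) and 4.54 (SE 0.12). The third inhibitor called, the linear-chain deubiquitinase Otulin, rose by 1.59 and 1.13. Its Padi4 KO call was lost with library size alone (0.75) and without the first (0.99) or second (0.997) WT library or the second Padi4 KO library (0.97) with R848, each under 2-fold. Cyld (0.20 and 0.53) and Otud7b (0.71 and 0.64) were not called. The libraries with R848 were far above those without for Tnfaip3 in both genotypes.

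Among the adaptors, kinases and ubiquitin ligases, 6 of 22 were called higher in WT and 4 in Padi4 KO, beside 7.17% and 8.07% of all genes tested. All these calls fell among the 21 with at least 10 counts, beside 10.8% and 10.9% of all genes with as many counts. Birc3, the ubiquitin ligase cIAP2 that Traf1 and Traf2 recruit, rose by 2.23 in WT and 2.30 in Padi4 KO, and Cflar, the caspase-8 inhibitor c-FLIP, by 2.04 and 1.76. Ikbkg, the IκB kinase subunit NEMO, rose by 2.36 and 3.11, but G6pdx overlaps it on the opposite strand and reads of the pair could be shared. Tank rose by 1.45 and 1.32, and Tbk1 (1.39) and Daxx (1.12) were called in WT, with 0.92 and 0.76 in Padi4 KO. The Padi4 KO call of Tank was lost with library size alone (0.95) and without the second Padi4 KO library with R848 (0.98), and that of Daxx in WT with library size alone (0.81). Tradd, Ripk1, Casp8 and Birc2 were not called in either genotype, with log2 fold changes between 0.045 and 0.95.

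The sheddase Adam17, which releases TNF and both TNF receptors, rose by 2.61 (SE 0.16) in WT and 2.38 (SE 0.13) in Padi4 KO, and its partner Rhbdf2 by 1.18 and 1.14, while Adam10 was at -0.10 and 0.14. Rhbdf2 was not called with library size alone (0.87 in WT and 0.76 in Padi4 KO), nor in Padi4 KO without the second Padi4 KO library with R848 (0.92). The ligand Ltb, lymphotoxin β, which lies beside Tnf on chromosome 17, rose by 2.15 (SE 0.15) in WT and 3.13 (SE 0.13) in Padi4 KO. Its levels were 101 and 93.2 CPM in unstimulated WT, 353 and 503 CPM in WT with R848, 63.3 and 42.8 CPM in unstimulated Padi4 KO and 451 and 445 CPM in Padi4 KO with R848. Of the genes of the list outside the 10 with at least 10 counts, Traf6, Traf7 and the receptors Tnfrsf14, Tnfrsf21, Tnfrsf23 and Relt were not called after R848.

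**Figure D4:**
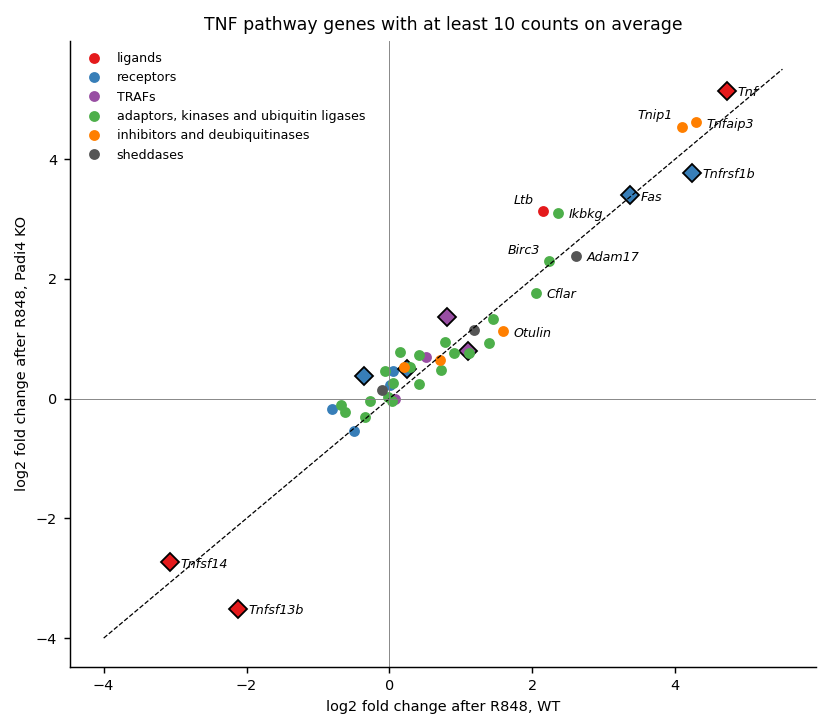
Log2 fold change after R848 in WT (horizontal) and Padi4 KO (vertical) for 45 genes of the TNF pathway list with at least 10 counts on average, coloured by role; diamonds mark 9 of the 10 genes of the report, and the dashed line marks equal responses. Tnfaip3 and Tnip1 lie near Tnf at the top right, Tnfsf14 and Tnfsf13b at the bottom left, and Ltb and Ikbkg above the line.

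Promoter sequence was looked at because several of these genes rose together and NF-κB binding sites are the textbook element of such promoters. The κB consensus was searched on both strands in the 250 bases before each RefSeq gene start of GRCm38.p6 and was found in 7.25% of 32817 promoters. Of the 10 genes only Traf3 held a match, directly before its start. Among 10 other genes of the list that were called higher in both genotypes, 9 had a promoter entry and 4 of these held a match (Ltb, Tank, Tnfaip3 and Tnip1), against 2 of 21 with an entry among the 26 remaining genes with at least 10 counts. A gene with several entries was counted if any of them matched, whereas the shares of all promoters are per entry. Tank and Tnfaip3 had several entries, and those of Tnfaip3 did not all match. The AP-1 motif TGANTCA, present in 6.75% of promoters, was found in 3 of the 10 genes (Fas, Tnfsf14 and 1 of the 2 promoter entries of Tnfsf13b), in 3 of the 9 and in 0 of the 21. The 3 of the 9 were Ikbkg, Tank and Tnfaip3, counted in the same way, and each had several entries that did not all match. The window is short, and its lack of a κB match in Tnf, Traf1, Fas and Tnfrsf1b says only that these letters are not in it. The following stretches, plus strand for Traf3 and Ltb and minus strand for Tnip1, show the match of the only one of the 10 genes that held it and those of a ligand and an inhibitor from the list, 5′ to 3′ with the κB matches in capitals. They are chr12:111166220-111166369, chr17:35194357-35194438 and chr11:54962941-54963090, and none touches an annotated exon.
Traf3: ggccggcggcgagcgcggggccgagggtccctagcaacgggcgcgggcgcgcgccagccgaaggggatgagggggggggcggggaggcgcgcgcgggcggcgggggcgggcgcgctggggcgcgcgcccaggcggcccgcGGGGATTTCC
Ltb: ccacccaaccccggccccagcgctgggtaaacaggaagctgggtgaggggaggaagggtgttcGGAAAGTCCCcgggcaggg
Tnip1: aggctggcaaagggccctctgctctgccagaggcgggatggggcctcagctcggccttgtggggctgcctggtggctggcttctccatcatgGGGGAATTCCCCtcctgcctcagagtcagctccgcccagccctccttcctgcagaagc
The match of Traf3 covers the 10 bases up to its start, that of Ltb lies 87 to 78 bases before the RefSeq start, and in Tnip1 overlapping matches fill 58 to 47 bases before the start. A match is a description of the sequence and was not tested against the counts.

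The question of the genotype was taken up in 3 comparisons, called at an FDR below 0.1 without a fold minimum. In unstimulated cells, 6 of the 10 genes were lower in Padi4 KO (Tnf, Tnfsf13b, Tnfsf14, Tnfrsf1a, Ltbr and Traf3) and Tnfrsf1b alone was higher, where 14.4% of all genes tested were called lower and 9.55% higher. Of the 6912 genes with at least 10 counts, as all 10 genes had, 24.2% were lower and 12.4% higher. The balance over all genes turned with the scaling, from 1170 higher and 1763 lower to 1901 and 561 with library size alone. The median log2 difference was -0.53 for the 10 genes and -0.034 for all genes. The scaling between libraries matters for these small differences. The median over the 6912 genes with at least 10 counts on average was -0.16 with TMM, -0.11 with relative log expression (RLE) factors and 0.12 with library size alone, and the values of single genes moved with it. Values relative to the median gene are therefore given beside some differences below. Subtracting the median removes a change of scaling by construction, so they say nothing of stability.

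Tnf was lower in unstimulated Padi4 KO by 0.91 (log2 difference -0.91, SE 0.30, adjusted p = 0.0208), which was -0.75 relative to the median gene. The difference rests on 20 and 24 counts (WT) against 19 and 24 counts from the deeper Padi4 KO libraries. The call was lost with library size alone (-0.63), without the second WT library (-0.70) and without the second Padi4 KO library (-0.73). Tnfsf13b differed by -0.73 (SE 0.21, adjusted p = 0.00512), or -0.56 relative to the median, and was not called with DESeq2 (-0.66), with library size alone (-0.44) or without the second Padi4 KO library (-0.63). Tnfsf14 differed by -0.47 (SE 0.19, adjusted p = 0.0663) and lost its call in 11 of 14 alternatives.

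Among the receptors, Tnfrsf1a differed by -0.47 (SE 0.11, adjusted p = 3.30e-04) and kept its call except with library size alone (-0.18). Ltbr differed by -0.60 (SE 0.19, adjusted p = 0.0133), a difference that shrank to -0.26 without the first WT library and was also not called without the second Padi4 KO library (-0.53), with DESeq2 (-0.53) or with library size alone (-0.31). Tnfrsf1b was higher by 0.42 (SE 0.15, adjusted p = 0.0367), or 0.58 relative to the median. Its call was lost without either WT library (0.49 and 0.36) and without the first Padi4 KO library (0.31). Fas differed by -0.33 (95% interval -0.83 to 0.16, adjusted p = 0.412).

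Of the TRAFs, Traf3 was lower by 0.73 (log2 difference -0.73, SE 0.18, adjusted p = 7.76e-04), or -0.57 relative to the median, and was not called without the second Padi4 KO library (-0.54). Traf2 overlapped between genotypes, with a difference of 0.087 (95% interval -0.59 to 0.76, adjusted p = 0.909). For Traf1, counted 2 times in the WT group and 0 times in the Padi4 KO group, no fold can be given. In the same libraries the erythroid sum was 110 to 123 CPM in WT and 1183 to 1237 CPM in Padi4 KO, and the mature neutrophil sum was 100100 to 104800 and 82300 to 84230 CPM. Their part in these differences was not tested.

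After R848, 4 of the 10 genes were lower in Padi4 KO (Tnf, Tnfsf13b, Fas and Traf1) and 0 higher, beside 7.81% lower and 9.46% higher among all genes tested. Of the genes with at least 10 counts, 13.4% were lower and 12.9% higher. The balance over all genes turned with the scaling, from 1159 higher and 957 lower to 990 and 1359 with RLE factors and 1870 and 417 with library size alone. DESeq2, which changes the test as well as the scaling, gave 387 and 621. No gene of the 10 was called higher by DESeq2 either, and 0 of the 10 were higher at an unadjusted p under 0.05. The median log2 difference was -0.22 for the 10 genes and 0.083 for all genes. The median gene with at least 10 counts stood at -0.0019 with TMM, -0.10 with RLE factors and 0.21 with library size alone.

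Tnf was lower after R848 by 0.49 on the log2 scale (-0.49, SE 0.086, adjusted p = 3.79e-07), which is 0.711 of the WT level, and the call was kept in all 14 alternatives, between -0.72 and -0.28. Tnfsf13b differed by -2.11 (SE 0.55, adjusted p = 0.00210), from 14 and 5 counts (WT) and 4 and 5 counts (Padi4 KO). Without the first WT library with R848 the difference was -1.24 and not called (adjusted p = 0.428, against 8.58e-05 to 0.428 over all alternatives). Fas differed by -0.31 (SE 0.10, adjusted p = 0.0223) and Traf1 by -0.43 (SE 0.16, adjusted p = 0.0450). Both lost their calls with DESeq2 (-0.41 and -0.53) and with library size alone (-0.092 and -0.21), and Traf1 also without the first WT library with R848 (-0.44).

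The other 6 genes did not pass the threshold after R848. Tnfrsf1a differed by -0.22 (95% interval -0.42 to -0.0079, adjusted p = 0.187), and was called with RLE factors (-0.32), without the first WT library with R848 (-0.37) and without the second Padi4 KO library with R848 (-0.38). Tnfrsf1b differed by -0.045 (-0.19 to 0.098), Tnfsf14 by -0.13 (-1.19 to 0.92), Ltbr by 0.14 (-0.26 to 0.54), Traf2 by -0.22 (-0.73 to 0.30) and Traf3 by -0.18 (-0.46 to 0.093), each with its 95% interval in parentheses. Without the first WT library with R848, Tnfrsf1b (-0.24) and Traf3 (-0.52) were called lower. In these libraries the erythroid sum was 19.4 to 24.6 CPM in WT and 1300 to 1314 CPM in Padi4 KO, and the mature neutrophil sum 89410 to 104200 and 74910 to 76420 CPM. Their part was not tested.

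**Figure D5:**
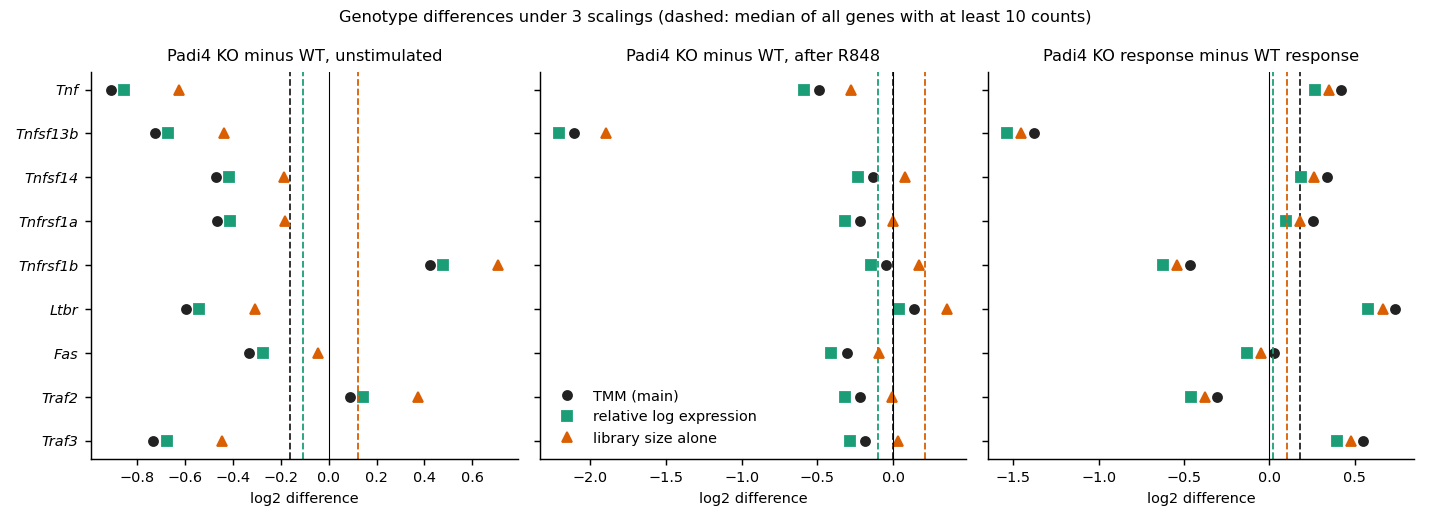
Log2 difference between genotypes without R848 (left) and after R848 (middle), and the difference of the R848 responses (right), for 9 transcripts under 3 scalings. Dashed lines give the median of the 6912 genes with at least 10 counts under each scaling in the same colour. The points of a gene move together with the dashed lines, and Tnf, Tnfsf13b, Tnfsf14, Tnfrsf1a, Ltbr and Traf3 lie left of all 3 lines in the left panel.

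The third comparison asked whether the response to R848 itself differed between the genotypes. None of the 10 genes was called in edgeR, with 3.45% of all genes tested called higher and 1.26% lower, while DESeq2 called Tnfrsf1b. In edgeR 4 of the 10 had an unadjusted p under 0.05 (Tnfrsf1b, Ltbr, Traf3 and Tnfsf13b). The share of all genes under that unadjusted p is not given here, so nothing is read from the 4. Of the genes with at least 10 counts, 5.87% were called higher and 2.16% lower. Over all genes the 423 higher and 154 lower became 160 and 233 with RLE factors, 255 and 170 with library size alone, and 35 and 90 with DESeq2. The median difference was 0.30 for the 10 genes and 0.20 for all genes, and the median of genes with at least 10 counts was 0.18 with TMM, 0.024 with RLE factors and 0.11 with library size alone.

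The Tnfrsf1b responses (Padi4 KO minus WT) differed by -0.47 on the log2 scale (SE 0.17, adjusted p = 0.119, not called), or -0.65 relative to the median gene. The difference was called in 9 of 14 alternatives, among them DESeq2 (-0.63), RLE factors (-0.62), library size alone (-0.54) and edgeR's expression filter (-0.47), and over all 14 it lay between -0.79 and -0.35 with adjusted p between 3.88e-04 and 0.474. It was also called without the second unstimulated Padi4 KO library (-0.63) and without each of the 4 libraries with R848 in turn (-0.79 and -0.63 for WT, -0.76 and -0.64 for Padi4 KO). Ltbr moved by -0.36 in WT and 0.38 in Padi4 KO, a difference of 0.74 (SE 0.28, adjusted p = 0.141) that was called without the second unstimulated WT library (0.98) and was 0.35 without the second WT library with R848.

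For Tnfsf13b the responses differed by -1.38 (95% interval -2.54 to -0.22, adjusted p = 0.226). Leaving out 1 library gave values between -2.27 and -0.64, with a call only at -2.27, without the second WT library with R848. Traf3 differed by 0.55 (0.10 to 1.00, adjusted p = 0.209), Tnf by 0.42 (-0.19 to 1.03, adjusted p = 0.620), Tnfsf14 by 0.34 (-0.78 to 1.46), Tnfrsf1a by 0.25 (-0.047 to 0.55), Traf2 by -0.31 (-1.15 to 0.54) and Fas by 0.025 (-0.48 to 0.53), each with its 95% interval in parentheses. Leaving out 1 library gave 0.078 to 0.68 for Traf3, 0.059 to 0.63 for Tnf and -0.84 to -0.11 for Traf2. Fas changed sign with RLE factors (-0.13), with DESeq2 (-0.13) and with library size alone (-0.047). For Traf1 the difference cannot be read, because the unstimulated Padi4 KO libraries had 0 counts.

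Of the 60 other genes of the pathway list, 1 was higher and 8 lower in unstimulated Padi4 KO, and 3 higher and 6 lower after R848. Over all genes tested 9.55% were higher and 14.4% lower without R848, and 9.46% and 7.81% after it, near or above most of the list's own shares, so nothing is read from these counts about the list. With at least 10 counts, the genes lower without R848 were Ltb (-0.92) and the kinase gene Map3k5 (-0.81), called in all 14 alternatives, Ikbkg (-0.98), called except without the first unstimulated WT library (-0.53), and Relt (-0.52), Birc3 (-0.51), Cyld (-0.57) and Tab2 (-0.39). Each of the last 4 lost its call with DESeq2 and with library size alone, and Birc3, Cyld and Tab2 also when 1 of several single libraries was left out. Those lower after R848 were Cflar (-0.41), Birc3 (-0.43), Tank (-0.55), Tbk1 (-0.55), Tnfaip3 (-0.38) and Adam17 (-0.31), and Adam10 was higher (0.38), a call kept in 7 of 14 alternatives. All 6 lower calls were lost with library size alone, and those of Tank, Tbk1 and Adam17 also with DESeq2. The response to R848 differed for 2 of the 60 genes, both larger in Padi4 KO, where 3.45% of all genes tested were called in that direction. These were Ltb (0.98, SE 0.22, adjusted p = 9.14e-04) and Ikbkg (0.75, SE 0.24, adjusted p = 0.0483), called in 11 and 5 of 14 alternatives. Without the first WT library with R848 they were 0.49 and 0.66 and not called.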

How the data were processed

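RNA of bone marrow neutrophils, isolated with magnetic beads, was sequenced in 4 groups of 2 libraries, grouped by the sample labels. The authors trimmed the reads with cutadapt 1.16, mapped them to mm10 with STAR 2.5.3a and counted them on genes with HTSeq 0.6.1p1; the deposited values are raw counts per gene symbol, and the annotation and strand setting are not given in the sources used here. The HTSeq summary lines, 10.6% to 13% of a library, were left out.

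Genes with at least 1 count in at least 2 libraries were tested in R 4.3.3 with the robust quasi-likelihood fit of edgeR 4.0.16, with TMM factors and 1 mean per group. Benjamini-Hochberg adjustment ran over 12254 genes. The SE was derived from the F statistic, as |log2 fold change| over its root. CPM use TMM factors, except for marker sums and floors, which use library totals. Lengths and positions are those of GENCODE M21 on GRCm38, promoters those of RefSeq. Intervals for ratios of low counts and floors cover counting error only. The study's test, the Wald test of DESeq2 (here 1.42.0), was an alternative, beside other scalings, filters, a replicate block and leaving out each library.

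The 10 genes, the list of 86 and the marker lists were chosen with earlier results of these data known. All 10 genes were named, and of the list those with at least 10 counts on average that were called, with others only where the text says so or to complete a role. The replicates of each group differed by more than sampling noise.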

Additional observations from a re-analysis of the deposited data

Results flagged for a closer look

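The response to R848 differed between the genotypes, by the test of the difference itself, for 2 genes of the wider list. These 2 of 60 genes tested are no more than the share over all genes tested, of which 3.45% were called in that direction (5.87% of those with at least 10 counts, against 2 of 36). Ltb rose more in Padi4 KO by 0.98 on the log2 scale (SE 0.22, adjusted p = 9.14e-04). The difference was called in 11 of 14 alternatives and lay between 0.49 and 1.22. It was not called with DESeq2 (0.81), without the second unstimulated Padi4 KO library (0.67) or without the first WT library with R848 (0.49). The log2 difference between Padi4 KO and WT was -0.92 without and 0.055 after R848.

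Ikbkg rose more in Padi4 KO by 0.75 (SE 0.24, adjusted p = 0.0483), with 101 and 58.7 CPM in the unstimulated WT libraries. The difference was called in 5 of 14 alternatives. It was not called without the first unstimulated WT library (0.29), without the second unstimulated Padi4 KO library (0.67) or without any 1 of the 4 libraries with R848 (0.66 and 0.34 for WT, 0.49 and 0.54 for Padi4 KO), and it was also not called with DESeq2 (0.58), RLE factors (0.60) or library size alone (0.68).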

How the results depend on the processing

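Over 14 alternatives, 622 of the 700 values of the 10 genes kept their sign and their side of the threshold, 36 lost and 17 gained a call, and 25 changed sign, of which 0 belonged to a called result. Replicate numbers did not pair the libraries (correlations of same-numbered deviations between -0.020 and 0.020), and the replicate block changed no call of the 10 genes. With DESeq2, fewer genes were called: 1289 in place of 2072 for the Padi4 KO response, 1061 in place of 2933 without R848, 1008 in place of 2116 after R848 and 125 in place of 577 for the difference. Without the 2-fold minimum, 3621 genes were called for the WT and 4299 for the Padi4 KO response. Leaving out 1 library gave 1944 to 2795 genes without R848 (lowest without the first unstimulated WT library) and 268 to 471 for the difference (lowest without the second Padi4 KO library with R848, 295 without the first, 297 without the first WT library with R848, 332 without the first unstimulated WT library). Of the 10 genes without R848, DESeq2 called 4, library size alone 2, and leaving out 1 library 2 to 6. After R848, DESeq2 and library size alone called 2 each. For the difference, DESeq2, RLE factors, library size alone and edgeR's expression filter called 1 each, and leaving out 1 library 0 to 2.

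With library size alone the sign changed for Tnfrsf1a in WT (-0.060), Ltbr in Padi4 KO (-0.00073) and, between genotypes after R848, Tnfsf14 (0.077), Tnfrsf1b (0.17) and Traf3 (0.031). The Fas difference of response was -0.13 with DESeq2, -0.13 with RLE factors and -0.047 with library size alone. Leaving out 1 library also changed the sign of Traf2 without R848 (-0.10 to 0.24), of Tnfsf14 (-0.60 to 0.13), Ltbr (-0.10 to 0.15) and Traf2 (-0.62 to 0.066) after R848, and of the differences of response of Tnfsf14 (-0.26 to 0.46), Tnfrsf1a (-0.036 to 0.34) and Fas (-0.29 to 0.054). The cause was not tested. The split of higher and lower calls moved with the scaling, and with DESeq2, which changes both test and scaling: 879 and 1328 in WT became 630 and 2106 with library size alone and 811 and 719 with DESeq2. For Padi4 KO, 989 and 1083 became 624 and 2072 with library size alone. Between genotypes without R848, 1170 and 1763 became 1901 and 561 with library size alone. After R848, 1159 and 957 became 1870 and 417 with library size alone, 990 and 1359 with RLE factors and 387 and 621 with DESeq2. For the difference, 423 and 154 became 255 and 170, 160 and 233, and 35 and 90 in the same order. Depth limits Traf1 without R848 and Tnfsf13b and Tnfsf14 after R848, which rest on at most 1, 14 and 13 counts a library.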

Other observations

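Several genes of the wider list had under 10 counts on average and are named here after their values were seen. The lymphotoxin α gene Lta had 1 and 0 counts in unstimulated WT, 4 and 3 in WT with R848, 0 and 0 in unstimulated Padi4 KO and 14 and 15 in Padi4 KO with R848, where it was at least 9.88-fold higher than 3 counts over the unstimulated group. Tnfrsf11a, the receptor RANK, had 1 count over the unstimulated Padi4 KO libraries and 12 and 22 counts after R848, a ratio of 34.8 (exact 95% counting interval 5.83 to 1412). In WT it had 1 and 0 counts without and 3 and 1 with R848, a ratio of 4.65 (0.46 to 229). Tnfrsf8, the receptor CD30, had 0 counts in all 4 unstimulated libraries, 3 and 3 counts in WT with R848 and 9 and 9 counts in Padi4 KO with R848. Tnfrsf18, the receptor GITR, had 8 and 3 counts in unstimulated WT, 3 and 7 in unstimulated Padi4 KO and 1, 0, 0 and 0 counts in the libraries with R848.

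Traf4 had 1 and 2 counts in unstimulated WT, 8 and 26 in unstimulated Padi4 KO, 0 and 1 in WT with R848 and 17 and 15 in Padi4 KO with R848. The ratio of Padi4 KO to WT was 6.14 without R848 (counting interval 1.93 to 31.3) and 15.3 after R848 (2.55 to 621), and the erythroid markers were higher in the same Padi4 KO libraries. Their part was not tested. Of the ligands of the list, Tnfsf4, Cd40lg, Fasl, Cd70, Tnfsf8, Tnfsf11, Tnfsf15 and Tnfsf18 had 0 counts in all 8 libraries.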
